A study of Rattus norvegicus with 6 samples.

Results

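Syndecans and glypicans are the cell surface proteins that carry most of the heparan sulfate of a cell, and their transcripts were followed here in vascular smooth muscle (VSM) cells grown from the soleus feed artery (SFA), the vessel that feeds the soleus muscle. The genes were chosen by name, as members of these families, and the rule used no measured values, although earlier results of these data were known. The rule named 9 genes, of which 8 were found among the 14475 genes of the count table by their symbol. These were the syndecans Sdc1 (ENSRNOG00000059947), Sdc2 (ENSRNOG00000004936), Sdc3 (ENSRNOG00000011927) and Sdc4 (ENSRNOG00000014297) and the glypicans Gpc1 (ENSRNOG00000049437), Gpc2 (ENSRNOG00000001367), Gpc4 (ENSRNOG00000002413) and Gpc6 (ENSRNOG00000046660), while Gpc3 was not analysed here. The cells came from male Fischer 344 rats, 3 young animals of 4 months and 3 old animals of 24 months, and 1 stranded library of polyadenylated RNA was sequenced per culture. The labels name no treatment, and all 6 cultures were grown in medium with serum, so the comparison is one of cultured cells and not of the vessel wall. The number of passages in culture is not given in the sources used here. The comparison of old with young asked which genes differ with the age of the animal.

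A syndecan is a transmembrane core protein whose outer part bears heparan sulfate chains and whose short cytoplasmic tail binds scaffold and signaling proteins. A glypican is tied to the membrane by a lipid anchor instead and has no cytoplasmic tail. The sulfated chains of both families hold growth factors, matrix proteins and chemokines at the cell surface, and syndecan-4 works beside integrins at focal adhesions. In the artery wall these chains are known as partners of fibroblast growth factors and as binding sites for lipoprotein lipase and other heparin-binding proteins.

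The count table held between 44235674 and 59700887 counts per library. Levels are given as CPM, the counts of a gene per 1000000 counts of its library after TMM normalization. CPM is not corrected for gene length, so levels are compared between groups and never between genes. A gene counted as called where the quasi-likelihood test of edgeR gave an adjusted p under 0.05 and the log2 fold change was 1 or more in size. The DESeq2 Wald test used in the study was run on the same counts with the same thresholds. The summed level of 8 smooth muscle markers lay between 11207 and 20995 CPM in young and between 3448 and 5562 CPM in old libraries, and that of 8 fibroblast markers between 15195 and 21414 CPM in young and between 29785 and 33421 CPM in old. Of these, 7 smooth muscle markers were lower in every old than in every young library and 4 fibroblast markers were higher. Most of the fibroblast sum was Col1a1, with 17637, 14928 and 21235 CPM in young and 29272, 30522 and 32726 CPM in old libraries. Each other fibroblast marker reached at most 635 CPM in any library, and the fibroblast markers not counted as higher overlapped between the groups. Markers of other cells were low. The 4 endothelial markers analysed summed to at most 18.2 CPM in any library, with Pecam1, Kdr and Vwf each under 1 CPM on average, the 3 macrophage markers to at most 16.8 CPM, and the 4 Schwann cell markers to between 13.7 and 86.6 CPM. Cdh5, Ptprc, Sox10 and Myod1, which define endothelial cells, leukocytes, Schwann cells and myoblasts, were not analysed here. Of the 2 skeletal muscle markers, which summed to between 84.9 and 263 CPM in young and between 27.8 and 46.0 CPM in old, Acta1 averaged 156 CPM in young and 13.7 CPM in old, and Tnnt3 averaged 10.7 CPM in young and 20.2 CPM in old. The part of the culture makeup in the results that follow was not tested, and in RNA from whole cultures fewer cells of a type and less RNA per cell cannot be told apart.

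In old VSM cells Sdc3 and Gpc4 were the members with the largest differences downward and Gpc1 was the member with the largest difference upward, while Sdc2 had nearly the same mean at both ages. With edgeR 0 of the 8 members were called, where 0.00691% of all genes were. Without adjustment, 3 members reached a p under 0.05 in edgeR with a lower level in old (Sdc3, Gpc4 and Sdc1), beside 11.5% of all genes, and 1 member higher in old (Gpc1), beside 11.2% of all genes. DESeq2 called 2 members downregulated, Sdc3 and Gpc4, where it called 3.38% of all genes downregulated, and it called 0 members upregulated, where it called 2.30% of all genes upregulated. limma-voom called 0 members, but it called 0 of all 14475 genes. All old libraries lay below all young libraries for 3 members (Sdc3, Gpc4 and Sdc1), a pattern found in 14.7% of all genes, and above them for 0 members, a pattern found in 14.5%. The median log2 fold change was -0.31 over the 8 members, -0.51 over the 4 syndecans and 0.24 over the 4 glypicans, compared with 0.02 over all genes. With 3 libraries in each group the smallest two-sided p of an exact permutation test is 0.10, so the p-values of single genes come from the models fitted across all genes. They set the difference between old and young against the spread between these cultures, in which animal and culture are not told apart.

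**Figure D1:**
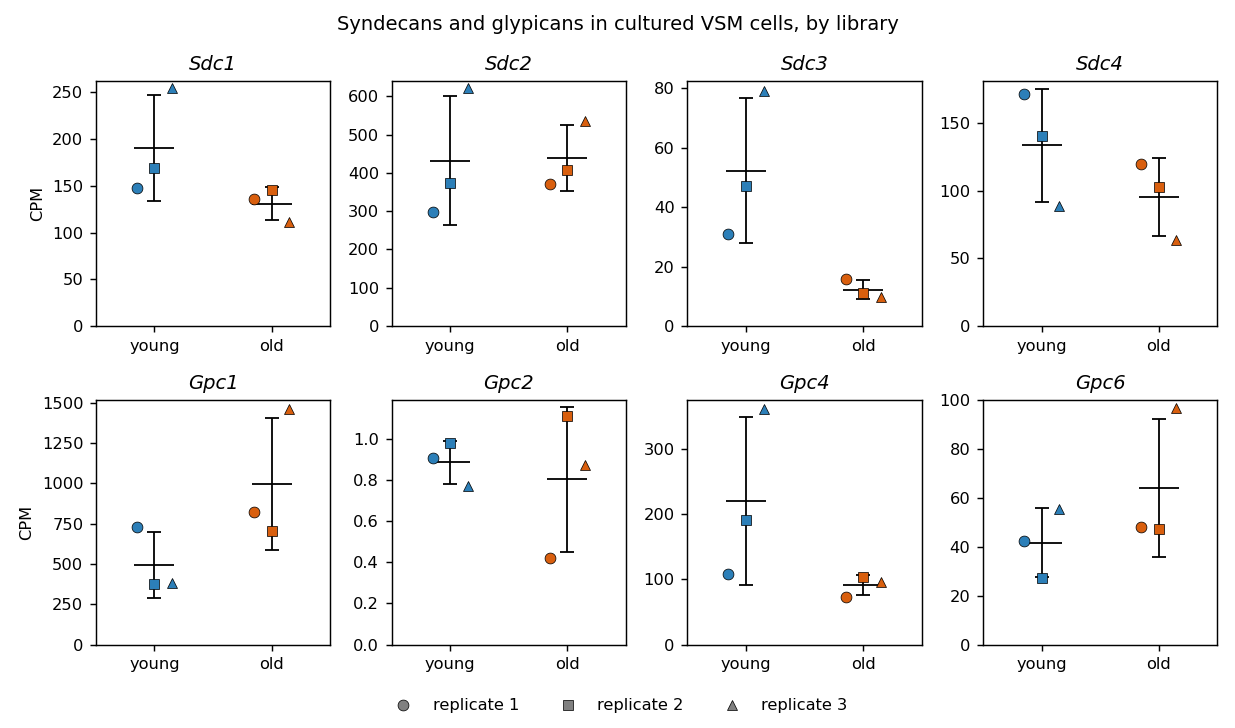
Level of each member in CPM (vertical axes, from 0) in the 3 young and 3 old libraries, with marker shape for the replicate number and bars for the mean and SD of the group. The old libraries of Sdc3 lie between 9.65 and 15.8 CPM, below the young libraries at 30.9 to 79.0 CPM, while the groups of Sdc2 overlap.

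Sdc3, a syndecan best known from nerve and muscle, had 30.9, 47.1 and 79.0 CPM in young replicates 1, 2 and 3 and 15.8, 11.3 and 9.65 CPM in old replicates 1, 2 and 3. The groups did not overlap, and the highest old library had about the same distance to the lowest young library as that library had to the next young one. The young libraries averaged 52.3 ± 24.4 CPM and the old libraries 12.3 ± 3.21 CPM (SD, n = 3 each). The log2 fold change was -2.09 with a standard error (SE) of 0.37 (edgeR adjusted p = 0.0648), with a 95% interval from -3.00 to -1.19. DESeq2 gave -2.10 with an adjusted p of 3.27e-06. In the ranking of all genes by the p-value of edgeR, Sdc3 stood at position 244. Without old replicate 1 the edgeR adjusted p was 0.0403 and Sdc3 was called, but that fit called 732 genes in all (5.06%), compared with 1 gene when all libraries were used. Leaving out the other libraries in turn gave edgeR adjusted p between 0.0804 and 0.230, and DESeq2 called Sdc3 without each of the 6 libraries, with adjusted p of at most 0.000587.

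Sdc1, the syndecan typical of epithelia and plasma cells, had 148, 169 and 255 CPM in the young libraries and 136, 145 and 111 CPM in the old libraries. The groups did not overlap, but the lowest young library, replicate 1, lay just above the highest old library, replicate 2. The young libraries averaged 191 ± 56.6 CPM and the old libraries 131 ± 17.7 CPM (SD, n = 3 each). Its log2 fold change of -0.54 (SE 0.22, edgeR adjusted p = 0.219) did not pass, and DESeq2 gave an adjusted p of 0.139. Without young replicate 3, the library with the highest Sdc1, the log2 fold change was -0.28.

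Sdc4, the syndecan of focal adhesions, had 171, 140 and 88.3 CPM in young and 120, 103 and 63.4 CPM in old libraries. The groups overlapped, with young replicate 3 below old replicates 1 and 2. Its log2 fold change was -0.48 (SE 0.31, edgeR adjusted p = 0.383), with a 95% interval from -1.24 to 0.27, so a decrease past the fold threshold and a small increase both lay within the error. It was -0.26 without young replicate 1 and also -0.26 without old replicate 3. Sdc4 was the syndecan with its lowest young value in young replicate 3, the library in which the other syndecans had their highest young value.

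Sdc2, the syndecan typical of mesenchymal cells, had 299, 374 and 622 CPM in young and 371, 408 and 536 CPM in old libraries. The old libraries fell within the range of the young ones. The young libraries averaged 432 ± 169 CPM and the old libraries 438 ± 86.5 CPM (SD, n = 3 each), and the log2 fold change was 0.02 (SE 0.30, edgeR adjusted p = 0.971). The 95% interval, from -0.69 to 0.73, leaves out a difference of the size of the fold threshold in either direction. The sign of this value turned negative with some libraries left out.

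Among the glypicans, Gpc4 had 108, 191 and 361 CPM in the young libraries and 73.5, 103 and 96.6 CPM in the old libraries. The young libraries were spread widely and the old ones were close together, and the lowest young library lay just above the highest old library. The young libraries averaged 220 ± 129 CPM and the old libraries 91.1 ± 15.5 CPM (SD, n = 3 each). The log2 fold change was -1.27 (SE 0.42, edgeR adjusted p = 0.166), with a 95% interval from -2.29 to -0.25, and DESeq2 gave -1.28 with an adjusted p of 0.0269. The DESeq2 call held without young replicate 1 (adjusted p = 0.000170) and was lost without each of the other 5 libraries, where the adjusted p lay between 0.0738 and 0.169. The log2 fold change of DESeq2 was -0.72 without young replicate 3 and between -1.38 and -1.15 without each of the other 4, so in those fits its size was close to that with all libraries.

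Gpc1, the glypican found widely in muscle and vessels, had 729.9, 376 and 379 CPM in young and 821, 704 and 1463 CPM in old libraries. Young replicate 1 lay above old replicate 2, so the groups overlapped, while the other young libraries were below every old library. The young libraries averaged 495 ± 204 CPM and the old libraries 996 ± 408 CPM (SD, n = 3 each). The log2 fold change was 1.01 (SE 0.38, edgeR adjusted p = 0.198), with a 95% interval from 0.09 to 1.93, and DESeq2 gave 1.00 with an adjusted p of 0.0644. Both ends of this result rested on single libraries. Without young replicate 1 the value from edgeR was 1.40 (adjusted p = 0.176) and DESeq2 called the gene (adjusted p = 0.00359), whereas without old replicate 3 edgeR gave 0.62 (adjusted p = 0.396). DESeq2 also called Gpc1 without old replicate 1 (adjusted p = 0.0497). That fit called 9.51% of all genes, compared with 5.56% with all libraries.

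Gpc6, the glypican closest to Gpc4 in its family, had 42.4, 27.1 and 55.6 CPM in young and 48.2, 47.3 and 96.8 CPM in old libraries. Young replicate 3 lay above 2 of the old libraries, and the old mean was carried by old replicate 3. Its log2 fold change of 0.62 (SE 0.37, edgeR adjusted p = 0.351) had a 95% interval from -0.27 to 1.51, and without old replicate 3 it was 0.20. Gpc2, a glypican of the developing nervous system, was near the lower end of detection with 41, 59 and 38 counts in young and 21, 58 and 47 counts in old libraries. Its log2 fold change of -0.14 (SE 0.40, edgeR adjusted p = 0.853) had a 95% interval from -1.10 to 0.82, and at these counts a decrease past the fold threshold lies within the error.

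**Figure D2:**
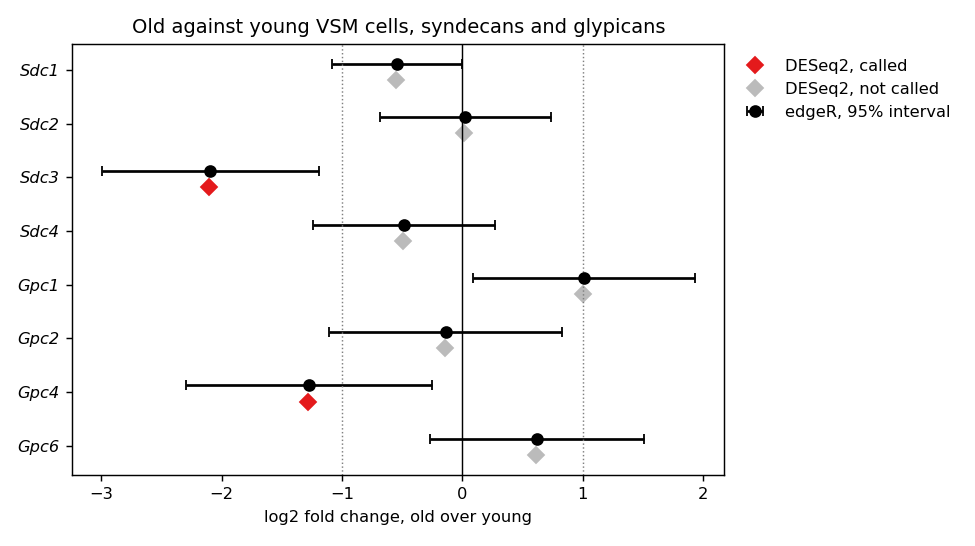
Log2 fold change of old over young VSM cells for each member (horizontal axis), from edgeR with its 95% interval (black) and from DESeq2 (diamonds, red where called), with dotted lines at the fold threshold of 1 in either direction. The intervals of Sdc3, Gpc4, Sdc1 and Gpc1 do not reach 0, and the red diamonds are those of Sdc3 at -2.10 and Gpc4 at -1.28.

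The balance between members of a family was also compared inside each library, as the ratio of the counts of a gene to those of another. Such a ratio does not depend on library size or normalization, and the length of the genes cancels when the ratio is compared between groups. The 12 pairs within the 2 families were compared after the levels had been seen. Each was tested with a two-sided exact permutation test of the log2 ratio, in which the smallest possible p is 0.10, which becomes 0.20 after adjustment over the 12 pairs, so that no pair could pass.

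For each count of Sdc3 there were 9.66, 7.94 and 7.88 counts of Sdc2 in the young libraries and 23.4, 36.2 and 55.5 in the old libraries. The young ratios were close together, with an SD of 0.17 on the log2 scale, and the mean log2 ratio was 2.09 higher in old (exact p = 0.10, adjusted p = 0.20 from the permutation test). The young libraries thus differed in Sdc2 and Sdc3 in nearly the same proportion, and the spread of Sdc3 among them was larger than the spread of this ratio. The ratio of Sdc1 to Sdc3 went from 4.78, 3.60 and 3.23 in young to 8.58, 12.9 and 11.5 in old, with a log2 difference of 1.51 (exact p = 0.10 from the permutation test). That of Sdc3 to Sdc4 was 0.180, 0.337 and 0.894 in young and below 0.180 in every old library, with a log2 difference of -1.54. The ratio of Sdc1 to Sdc2 had a log2 difference of -0.59 without overlap (exact p = 0.10 from the permutation test). The groups overlapped for Sdc1 to Sdc4, with a log2 difference of -0.03 (exact p = 0.90), and for Sdc2 to Sdc4, with a log2 difference of 0.56 (exact p = 0.40).

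In the glypicans, the ratio of Gpc1 to Gpc4 was 6.77, 1.97 and 1.05 in young and 11.2, 6.83 and 15.1 in old libraries. The groups did not overlap, but young replicate 1 and old replicate 2 nearly met. The log2 difference was 2.12 (exact p = 0.10, adjusted p = 0.20 from the permutation test). The ratio of Gpc4 to Gpc6 was 2.54, 7.03 and 6.49 in young and 1.52, 2.18 and 0.997 in old, with a log2 difference of -1.71 and the same p. The ratio of Gpc1 to Gpc6, which both had higher means in old, was 17.2, 13.8 and 6.82 in young and 17.0, 14.9 and 15.1 in old (log2 difference 0.41, exact p = 0.50). The groups also overlapped in the pairs with the sparsely counted Gpc2, where the log2 difference was 1.25 for Gpc1 to Gpc2, 0.87 for Gpc2 to Gpc4 and -0.84 for Gpc2 to Gpc6, with exact p of at least 0.20.

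**Figure D3:**
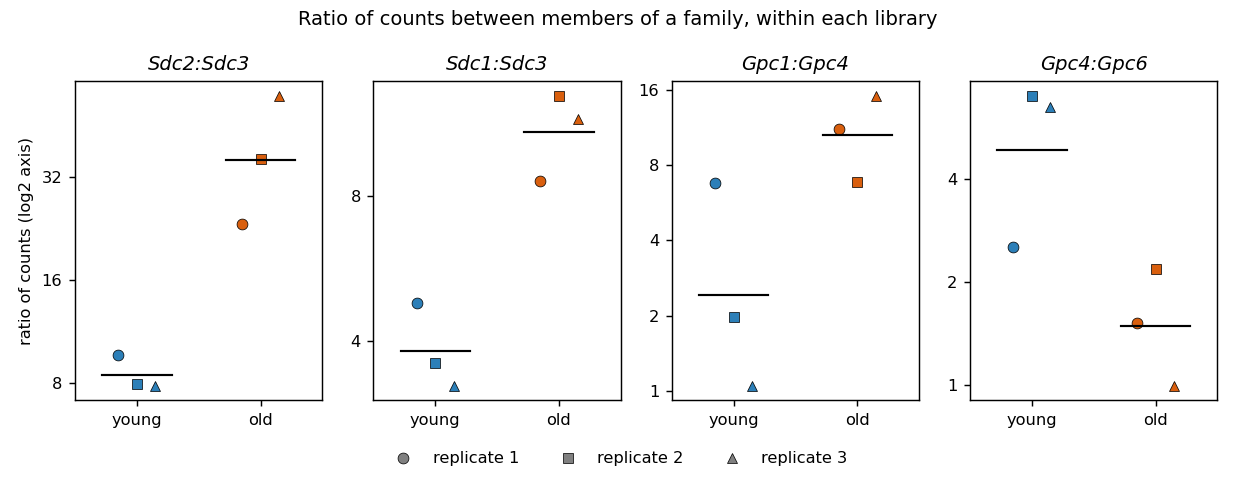
Ratio of counts between members of a family within each library (vertical axes on a log2 scale), with marker shape for the replicate number and a line at the mean of the log2 ratios. The Sdc2 to Sdc3 ratio lies between 7.88 and 9.66 in young and between 23.4 and 55.5 in old libraries.

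The promoter windows of the members were read from the RefSeq table of the rat build GRCr8, which gives 250 bases before and 50 bases after the start of a gene. Windows were found for 5 of the 8 members. They are printed for Sdc3 and Gpc4, which DESeq2 called, and for Sdc4, which was not called, with TATAA and GGGCGG on either strand in capitals. The Sdc3 window lies at chr5:148249542-148249841 on the plus strand, that of Gpc4 at chrX:136676008-136676307 on the minus strand and that of Sdc4 at chr3:173592874-173593173 on the minus strand.
Sdc3: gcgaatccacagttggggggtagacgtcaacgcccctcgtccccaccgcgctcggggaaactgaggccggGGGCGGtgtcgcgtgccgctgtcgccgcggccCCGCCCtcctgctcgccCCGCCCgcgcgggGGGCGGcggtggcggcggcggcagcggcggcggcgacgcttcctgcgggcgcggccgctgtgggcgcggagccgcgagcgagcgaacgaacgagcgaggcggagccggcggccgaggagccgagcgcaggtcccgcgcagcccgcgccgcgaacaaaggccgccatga
Gpc4: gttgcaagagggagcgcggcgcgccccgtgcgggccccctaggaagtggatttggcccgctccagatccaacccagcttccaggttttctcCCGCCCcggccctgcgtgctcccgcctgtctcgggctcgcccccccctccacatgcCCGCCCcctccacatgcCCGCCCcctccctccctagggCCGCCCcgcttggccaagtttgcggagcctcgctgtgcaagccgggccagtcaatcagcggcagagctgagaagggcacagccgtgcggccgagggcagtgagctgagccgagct
Sdc4: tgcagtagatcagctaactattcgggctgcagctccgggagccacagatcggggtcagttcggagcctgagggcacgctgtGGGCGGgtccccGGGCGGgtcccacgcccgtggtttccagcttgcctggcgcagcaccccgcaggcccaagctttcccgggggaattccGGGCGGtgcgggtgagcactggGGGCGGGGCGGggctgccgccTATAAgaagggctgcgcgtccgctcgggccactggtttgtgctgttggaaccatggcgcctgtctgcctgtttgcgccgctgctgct

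The letters GGGCGG, the core of the GC box bound by Sp1, occur 4 times in the Sdc3 window, 4 times in that of Gpc4 and 5 times in that of Sdc4, of which a pair overlaps, and 34.9% of 27457 promoters hold them at least once. The windows of Sdc3 and Gpc4 hold no TATAA on either strand, while Sdc4 has it 37 bases before the start, and 26.1% of promoters hold it. A CArG box, the site of serum response factor on many contractile genes, is in 0 of the 5 windows and in 1.64% of promoters. The G and C content is 79.3% for Sdc3, higher than in 98.9% of promoters, 71.3% for Gpc4 and 68.7% for Sdc4, against a median of 52.3%. Coordinates and sequence are those of GRCr8, a later build than the one named for the alignment, and these matches are descriptions of the windows.

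Across the 6 libraries, the genes whose pattern was closest to that of Sdc3 were Crim1, Trim36, Myl9, Cited2 and Acta2. Likeness was measured as the root mean square difference of log2 CPM over the 6 libraries, each gene centered on its own mean, among 11436 genes with a symbol and at least 1 CPM on average. The difference was 0.16 for Crim1 and 0.23 for Acta2, the latter encoding smooth muscle alpha-actin. Acta2 had 4972, 7585 and 10381 CPM in young and 2201, 1126 and 1422 CPM in old libraries, so that young replicate 3 was the highest young library for both genes and old replicate 1 the highest old library. The genes closest to Gpc4 were Plcb4, Rab6b, Kcnd3, Meis1 and Bdnf, with differences from 0.14 to 0.20. Since likeness was measured over the same 6 libraries, the difference between old and young entered the choice of these genes.

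**Figure D4:**
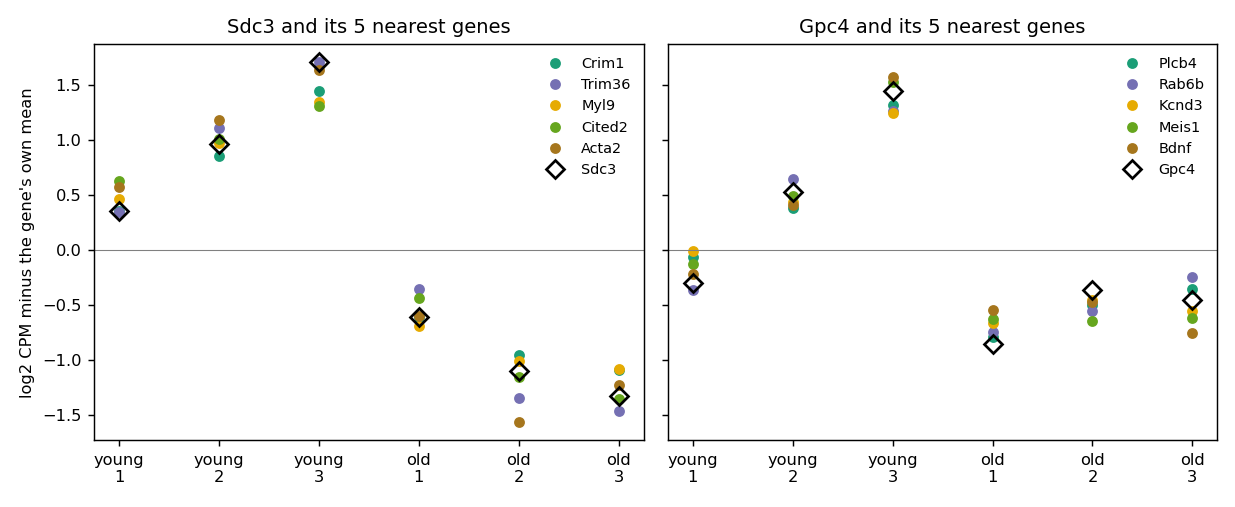
Log2 CPM minus the gene's own mean (vertical axis) in each of the 6 libraries (horizontal axis) for Sdc3 and Gpc4 (open diamonds) and the 5 genes closest to each (filled points). For both members young replicate 3 is the highest library, and the Sdc3 set has its highest old values in old replicate 1.

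The genes that build, edit and read the heparan sulfate of syndecans and glypicans were taken from 9 lists, of which 106 of 130 genes were analysed. edgeR called 0 of the 106, with 14 lower (13.2%) and 21 higher (19.8%) in old at an unadjusted p under 0.05, and DESeq2 called 6 downregulated and 10 upregulated. limma-voom called 0, as it did over all genes. The shares at an unadjusted p under 0.05 stand beside the 11.5% and 11.2% of all genes given above. Over all genes DESeq2 called 3.38% downregulated and 2.30% upregulated. The median log2 fold change over the 106 genes was 0.13, compared with 0.02 over all genes.

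Heparan sulfate chains are polymerized by a complex of Ext1 and Ext2, and these partners had differences of opposite sign. Ext1 had 132, 167 and 177 CPM in young and 86.2, 81.7 and 98.2 CPM in old libraries, a log2 fold change of -0.84 (SE 0.14, edgeR adjusted p = 0.0636). Ext2 had 128, 136 and 139 CPM in young and 157, 194 and 187 CPM in old libraries, a log2 fold change of 0.41 (SE 0.11, edgeR adjusted p = 0.119). For neither gene did the groups overlap. DESeq2 gave adjusted p of 4.14e-05 for Ext1 and 0.0199 for Ext2, both short of the fold threshold. Of the 11 linkage and polymerization genes analysed, 2 were lower and 1 was higher at an unadjusted p under 0.05, the other lower gene being Pxylp1, the phosphatase that releases the linker for elongation, at -0.47 (edgeR adjusted p = 0.139).

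Among the 14 enzymes of sulfation and epimerization, 1 was lower and 3 were higher at an unadjusted p under 0.05, and DESeq2 called 0. Glce, the epimerase that turns glucuronic into iduronic acid, had a mean of 92.9 ± 10.8 CPM in young and 173 ± 44.5 CPM in old (SD, n = 3 each), which is a log2 fold change of 0.90 (edgeR adjusted p = 0.101). Hs3st1, a 3-O-sulfotransferase, was at 1.52 (edgeR adjusted p = 0.186) with few reads, 1.78 ± 0.482 CPM in young and 5.12 ± 3.28 CPM in old (SD, n = 3 each), and its groups overlapped. Ndst3 was at 0.53 (edgeR adjusted p = 0.190). The lower gene was Hs3st3b1, below 1 CPM on average and named after its value was seen, at -0.94 (edgeR adjusted p = 0.194). Its old libraries all lay below its young libraries. Ndst1, which starts sulfation by replacing acetyl groups, had 54.8 ± 1.60 CPM in young and 54.1 ± 3.47 CPM in old (SD, n = 3 each), with a 95% interval of the log2 fold change from -0.22 to 0.19. The sulfotransferases Hs2st1 and Hs6st1 were at 0.04 and 0.05, with intervals from -0.60 to 0.68 and from -0.86 to 0.96. Hs6st2 had a log2 fold change of -0.65 (edgeR adjusted p = 0.258).

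Of the 11 genes that edit chains outside the cell or shed core proteins, 1 was lower and 2 were higher at an unadjusted p under 0.05, and DESeq2 called these 3. The higher genes were matrix proteases able to cleave syndecans. Mmp2 had 1430, 1250 and 789 CPM in young and 1877, 4720 and 3973 CPM in old libraries, a log2 fold change of 1.61 (SE 0.40, edgeR adjusted p = 0.108). Mmp14 had 454 ± 43.2 CPM in young and 1095 ± 566 CPM in old (SD, n = 3 each), which is a log2 fold change of 1.27 (SE 0.36, edgeR adjusted p = 0.130). The lower gene was Mmp3, below 1 CPM on average and named after its value was seen, at -1.83 (edgeR adjusted p = 0.167). The sulfatases Sulf1 and Sulf2, which remove 6-O-sulfate from finished chains, were at -0.14 and 0.45, and the sheddase Adam17 at 0.04, with adjusted p of at least 0.498 from edgeR. Heparanase, Hpse, had 2.67 ± 0.794 CPM in young and 5.55 ± 2.66 CPM in old (SD, n = 3 each, log2 fold change 1.06, edgeR adjusted p = 0.228). Notum, which cuts glypicans from their anchor, was not analysed here.

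All 7 lysosomal genes of heparan sulfate breakdown that were analysed had positive log2 fold changes, from 0.16 to 0.98 with a median of 0.45, and 3 of them had an unadjusted p under 0.05, while edgeR and DESeq2 called 0. Over all genes, 7534 of 14475 had positive values and 11.2% were higher in old at an unadjusted p under 0.05. The 3 lysosomal genes were Naglu at 0.98 (edgeR adjusted p = 0.162), Idua at 0.82 (adjusted p = 0.211) and Sgsh at 0.81 (adjusted p = 0.216). The groups overlapped for Idua and Sgsh but not for Naglu. In each of the 3, old replicate 3 was the highest library.

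Of the 16 cytoplasmic partners of syndecans, 2 were lower and 1 was higher at an unadjusted p under 0.05. Sdcbp, which encodes syntenin, the PDZ protein that binds syndecan tails, had 520, 521 and 405 CPM in young and 382, 394 and 356 CPM in old libraries, a log2 fold change of -0.35 (edgeR adjusted p = 0.199) with groups that did not overlap. The kinase gene Fyn had 38.2, 38.8 and 41.1 CPM in young and 69.0, 89.0 and 87.0 CPM in old libraries, a log2 fold change of 1.05 (SE 0.12, edgeR adjusted p = 0.0531), and DESeq2 called it (adjusted p = 4.55e-10). Src, of the same kinase family, was at -0.20 (edgeR adjusted p = 0.200). Prkca, a partner of syndecan-4, was at -0.23 with an interval from -0.82 to 0.36.

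Other proteoglycans that bear heparan sulfate did not share a direction, with 1 of 8 lower and 1 higher at an unadjusted p under 0.05. The basement membrane proteoglycan perlecan, Hspg2, had 1337 ± 192 CPM in young and 1143 ± 56.8 CPM in old (SD, n = 3 each, log2 fold change -0.23, edgeR adjusted p = 0.394), and agrin, Agrn, was at -0.08. Tgfbr3, the betaglycan that presents TGF-beta, had 50.4, 34.2 and 14.5 CPM in young and 88.6, 205 and 74.7 CPM in old libraries, a log2 fold change of 1.89 (edgeR adjusted p = 0.139) called by DESeq2. Cd44, the hyaluronan receptor, some forms of which carry heparan sulfate, was at -0.85 (edgeR adjusted p = 0.0636).

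**Figure D5:**
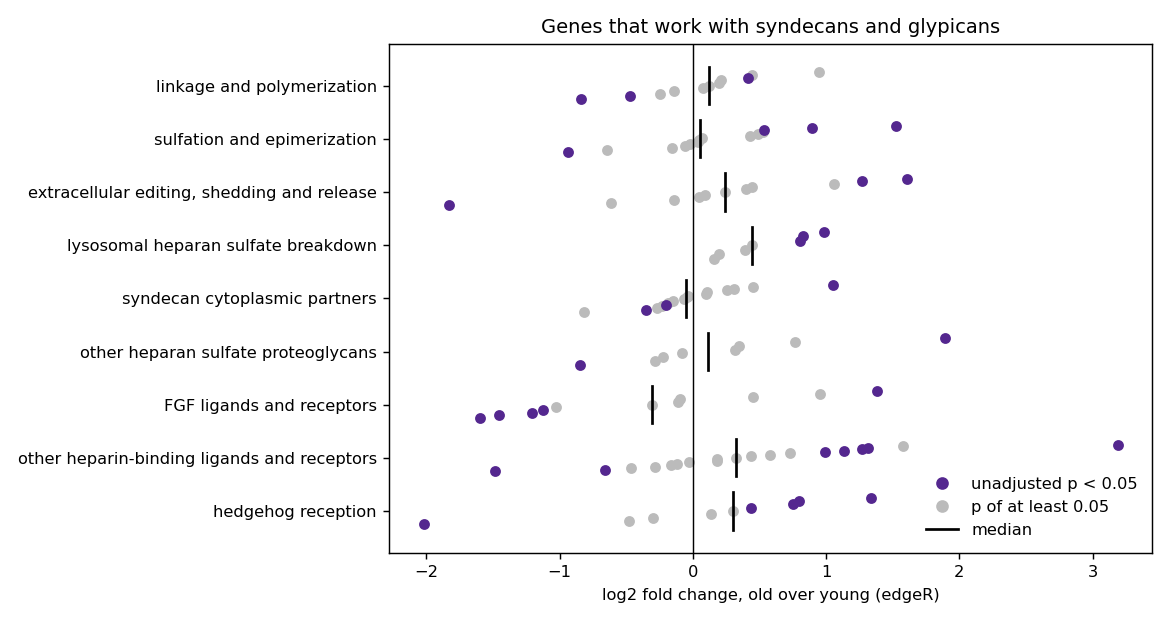
Log2 fold change of old over young from edgeR (horizontal axis) for each analysed gene of the 9 lists (rows), purple where the unadjusted p is under 0.05, with a line at the median of the list. The 7 lysosomal genes all lie above 0, with a median of 0.45, and the FGF list has the lowest median, -0.31.

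Fibroblast growth factors signal through receptors with heparan sulfate as a co-receptor, and of 11 FGF genes 4 were lower and 1 was higher at an unadjusted p under 0.05. DESeq2 called 3 of these downregulated, Fgf1, Fgf2 and Fgfr3, and 1 upregulated, Fgf9. Fgf2 had few reads, with 4.85, 8.88 and 6.70 CPM in young and 2.61, 2.21 and 1.94 CPM in old libraries, a log2 fold change of -1.59 (SE 0.27, edgeR adjusted p = 0.0636). Fgf1 was at -1.21 (edgeR adjusted p = 0.106), from 29.4 ± 7.28 to 12.7 ± 4.09 CPM (SD, n = 3 each). The receptor Fgfr3 was at -1.46 (edgeR adjusted p = 0.0531), from 23.5 ± 3.36 to 8.56 ± 1.87 CPM (SD, n = 3 each). Fgfr1 had 316 ± 102 CPM in young and 431 ± 82.8 CPM in old (SD, n = 3 each, log2 fold change 0.45, edgeR adjusted p = 0.335). Fgf18 and Fgf9 were at -1.13 and 1.38, neither above 5.05 CPM in any library.

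Among 19 other heparin-binding ligands and receptors, 2 were lower and 5 were higher at an unadjusted p under 0.05, and DESeq2 called 1 and 4. Hbegf, a growth factor of smooth muscle that binds heparin, had 45.8, 59.6 and 87.6 CPM in young and 33.5, 20.7 and 14.9 CPM in old libraries, a log2 fold change of -1.48 (edgeR adjusted p = 0.105). As for Sdc3, young replicate 3 was its highest young library and old replicate 3 its lowest old library. Vegfa, the endothelial growth factor whose longer forms bind heparan sulfate, had 135 ± 11.2 CPM in young and 324 ± 119 CPM in old (SD, n = 3 each), which is a log2 fold change of 1.27 (edgeR adjusted p = 0.0762). Lpl was at 1.32 (edgeR adjusted p = 0.153). Ptn, which encodes pleiotrophin, was at 3.19 (edgeR adjusted p = 0.114), but old replicate 3, at 17.4 CPM, carried the old mean of 7.74 ± 8.41 CPM (SD, n = 3), beside 3.10 and 2.67 CPM in the other old libraries and 0.850 ± 0.264 CPM (SD, n = 3) in young.

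Glypicans bind hedgehog proteins, and of 9 genes of hedgehog reception 1 was lower and 4 were higher at an unadjusted p under 0.05. Over all genes these shares were 11.5% and 11.2%. DESeq2 called 1 of the 9 downregulated and 1 upregulated, and the lower gene is not reported here. The co-receptor gene Cdon had 49.4, 37.9 and 36.8 CPM in young and 99.1, 119 and 94.5 CPM in old libraries, a log2 fold change of 1.33 (SE 0.16, edgeR adjusted p = 0.0531), and DESeq2 called it. The co-receptor Boc was at 0.80 (edgeR adjusted p = 0.210), and Gli3, a transcription factor of the pathway, at 0.76 (edgeR adjusted p = 0.116).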

How the data were processed

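RNA of cultured VSM cells from 3 young and 3 old rats was compared. The authors deposited raw counts per gene, which are whole numbers without normalization and cover 14475 genes with at least 10 counts in at least 3 libraries. Per the submitters' processing notes, reads were trimmed with cutadapt 3.5 through Trim Galore 0.6.7, aligned with STAR 2.7.10b and counted with featureCounts of Subread 2.0.8. The Methods name the rat assembly v6.0. How featureCounts treated strand, mates and multi-mapping reads is not given in the sources used here. Every library held more counts than the highest number of reads per sample that the paper reports, and the reason was not tested. Counts from 1 to 19 were even in 68.7% to 71.1% of cases per library, and halved counts were tried as an alternative.

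All genes were fitted in R 4.3.3 with edgeR 4.0.16 (TMM, quasi-likelihood F test, age as the only term, Benjamini-Hochberg adjustment over all genes). Standard errors were obtained as the size of the log2 fold change over the root of F, and 95% intervals use the t distribution with the degrees of freedom of the test. DESeq2 1.42.0, without an adjusted p for 292 genes, and limma-voom (limma 3.58.1) were alternatives, and the fits were tested on simulated data. Replicates differed by far more than sampling noise (chi-square per gene of at least 67.1).

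The members, gene lists and tests were chosen with earlier results of these data known. Named genes were the members, a fixed set of pathway genes and, in each list, up to 4 further genes with the largest absolute log2 fold change among those at an unadjusted p under 0.05 and a mean of at least 1 CPM. Transcript lengths were not used here, so the planned comparison of levels between members was not made and count ratios were used instead. For 1 list a gene that the rule names is not reported here.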

Additional observations from a re-analysis of the deposited data

How the results depend on the processing

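With edgeR the number of members called stayed at 0 under RLE size factors, library size only, both other filters on low counts and halved counts. It ranged from 0 to 1 with each library left out, where the 1 was Sdc3 without old replicate 1. The separate fit of limma-voom called 0 members and 0 of all genes. Over all genes, edgeR called 732 (5.06%) without old replicate 1 and 0 to 5 without any other library. DESeq2 called 2 members with all libraries and 1 to 3 with a library left out, an alternative chosen after seeing the data, and Sdc3 was called each time. Over all genes these fits called 3.81% to 9.51%, compared with 5.56% with all libraries. An edgeR adjusted p under 0.1 with the same fold threshold gave 1 member, but the share of all genes at that threshold is not given here. An unadjusted p under 0.05 gave 4 members, and 3277 of all 14475 genes reached it. Of the 106 pathway genes, edgeR called 0 to 11 with a library left out, the 11 without old replicate 1. DESeq2 called 16 of the 106 with all libraries and 8 to 22 with a library left out. In edgeR an adjusted p under 0.1, again without the share of all genes, gave 5 and an unadjusted p under 0.05 gave 35. The median log2 fold change of the members stayed between -0.50 and -0.22. Sdc2 changed sign without young replicate 1, without young replicate 2 or without old replicate 3, and lay between -0.19 and 0.38 in edgeR and between -0.20 and 0.38 in DESeq2 with a library left out. Gpc2 changed sign without old replicate 1, with a range from -0.45 to 0.17. The signs of the other 6 members held under all 20 settings.

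Same-numbered libraries deviated from their group means with correlations of 0.06, 0.31 and 0.29 over 12257 genes, and young replicate 1 correlated best with old replicate 2, so the numbers were not taken to pair the samples. With the replicate number as a block, 0 members and 0 pathway genes were called, where 1 of all 14475 genes was. In that fit the median of the members was -0.35 and Sdc3 had a log2 fold change of -2.02 (adjusted p = 0.117 from edgeR). With 3 libraries a group, differences smaller than the intervals given for each gene cannot be resolved.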
